A study of Myzus persicae with 8 samples.

Results

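Galactokinase 1 was represented on the array by 3 contigs, assembled transcript sequences of the green peach aphid Myzus persicae, out of 10489 contigs with probes. They are contig5068, contig306 and contig6657. They were chosen because the study's list of 183 contigs up-regulated in genotype S describes each of them as galactokinase 1, and the list selected its contigs from the response of genotype S to the insecticide. The values of genotype S are therefore given below as a description, without a test. All 3 contigs had 1 and the same best hit in that list, a predicted pea aphid (Acyrthosiphon pisum) protein similar to galactokinase 1. Whether they come from 1 gene or from several, and whether their probes read the same transcripts, was not tested.

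Galactokinase opens the Leloir pathway, the main route by which animals and microbes use galactose. It transfers a phosphate group from ATP to galactose. Galactose-1-phosphate uridylyltransferase then exchanges the product with UDP-glucose, which releases glucose-1-phosphate for glycolysis or glycogen synthesis. Aphids feed on phloem sap, a diet rich in sucrose, and the phloem of some plants also carries sugars that contain galactose.

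Adult wingless aphids, 7 days old, on pepper leaf discs were sprayed with 1 ml of pirimicarb at 20 ppm in acetone plus water, and their controls were sprayed at the same time. Pirimicarb is a carbamate that inhibits acetylcholinesterase. Genotype S carried none of the resistance mutations that the study typed, genotype SR (simple resistant) was heterozygous for kdr, a sodium channel mutation, and genotype MR (multiple resistant) was heterozygous for kdr and for MACE, a modified acetylcholinesterase. Each genotype was 1 clone, so its resistance and the rest of its genome cannot be told apart. After 24 h the living aphids were frozen and RNA was taken from pools of about 40 whole aphids, so that levels are those of the survivors. The sprayed dose was above the median lethal concentration that the study's leaf-dip assay gave for S and SR, and below that for MR. A difference between genotypes in dose effect or in survivors was not tested. The controls are given as water in the methods and titles but as acetone plus water in 1 label field, and an effect of the acetone cannot be told apart from that of pirimicarb if only the first is right. In whole-body RNA, fewer cells of a type and less RNA per cell cannot be told apart.

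There were 8 two-colour arrays, each with the insecticide and the control RNA of 1 genotype: 3 for S, lettered A to C, 2 for SR, lettered A and B, and 3 for MR. The dyes were swapped in replicate B of each genotype, where the insecticide sample was in Cy3 in place of Cy5. Both arrays of MR replicate A carried the same insecticide sample and were averaged, which left 7 replicates. The title of the second of them names water replicate C, although its description calls it a technical replicate. The study's methods count 3 biological replicates for MR. The array of S replicate A is labelled SR in its genotype fields and S in its title and description, and was kept in S. All arrays lay on 1 slide and were scanned in 1 run. Over all 14628 probes, the log2 ratios of insecticide over water of the 2 MR A arrays correlated at r = 0.98 with each other but at -0.55 and -0.54 with that of MR B. The corresponding value was 0.08 for the SR pair and between 0.29 and 0.48 for the S pairs. The labelled direction was kept for MR replicate A, and the MR means of the 3 contigs, their difference from SR and the list results in MR are also given with its sign turned, an alternative added after seeing the data. Turning 1 of 2 opposed replicates makes them alike, so P values and counts with the sign turned are descriptions. The levels of the single channels and the values of single replicates are given as labelled.

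Each galactokinase 1 contig had 1 probe. All 24 spots (3 probes on 8 arrays) were well above background in both dyes, and none was saturated or marked as an outlier. Their signal was 6.77 to 210.5 times the local background. The lowest of these, 6.77 for contig306 and 7.36 for contig5068, were in the water sample of S A.

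In genotype S, whose values chose the contigs, all 3 contigs were higher with insecticide than with water in each of the 3 replicates. For contig5068 the log2 ratio was 3.30 in S A, 0.64 in S B and 1.36 in S C, a mean of 1.77 ± 1.37 (SD, n = 3) or 3.40-fold. For contig306 it was 3.31, 0.76 and 1.16, a mean of 1.74 ± 1.37 (SD, n = 3) or 3.35-fold. For contig6657 it was 2.95, 0.64 and 1.12, a mean of 1.57 ± 1.22 (SD, n = 3) or 2.98-fold. Replicate A stood apart, at more than the other replicates' sum for each contig, and without it the means were 1.00, 0.96 and 0.88. On S A the unnormalized signal of contig5068 was 390 in the water channel and 5739 in the insecticide channel. Of all probes on the array, 1.71% (250 of 14628) had a mean log2 ratio above 1 with an unadjusted P under 0.05 in S by limma, and the 3 contigs belong to these by their choice.

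**Figure D1:**
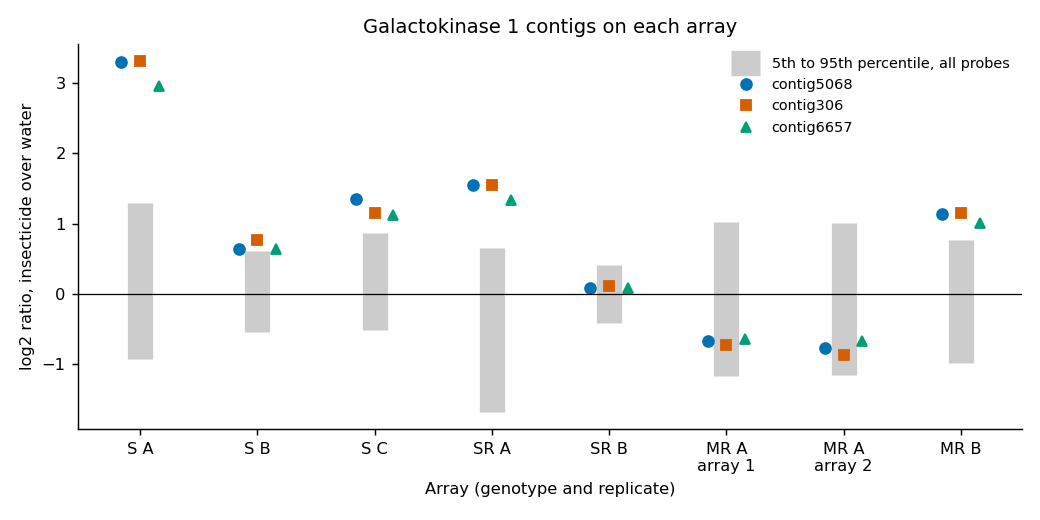
The log2 ratio of insecticide over water (y axis) of contig5068, contig306 and contig6657 on each of the 8 arrays (x axis), with grey bars from the 5th to the 95th percentile of all probes on that array. The 3 contigs lie above the bars on the S arrays, SR A and MR B, inside the bar on SR B near 0.1, and below 0 on both MR A arrays.

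In genotype SR, which the choice did not use, the 3 contigs were well above 0 in 1 replicate and close to 0 in the other. The log2 ratio of contig5068 was 1.55 in SR A and 0.09 in SR B, that of contig306 was 1.54 and 0.11, and that of contig6657 was 1.34 and 0.09. On SR A, 99.4% of all probes had a lower ratio than contig5068, whereas on SR B 63.4% did. The means were 0.82 ± 1.03, 0.83 ± 1.01 and 0.72 ± 0.89 (SD, n = 2), in the same order. None of the 3 contigs passed the threshold of a log2 ratio above 1 with an unadjusted P under 0.05, against 0.164% of all probes (24 of 14628) that passed it upwards. In limma's fit of SR, unadjusted P was 0.117 for contig5068, 0.111 for contig306 and 0.125 for contig6657, and the adjusted p (Benjamini-Hochberg over all probes) was 1.00 for each. The 95% interval of contig5068 ran from -0.32 to 1.96, and those of contig306 (-0.29 to 1.95) and contig6657 (-0.31 to 1.74) were alike, so that both no change and the mean seen in S lay within them.

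In genotype MR the 2 replicates went in opposite directions. The log2 ratio of contig5068 was -0.67 and -0.76 on the arrays of MR A and 1.14 in MR B. That of contig306 was -0.72, -0.86 and 1.15, and that of contig6657 was -0.63, -0.67 and 1.01. The repeat array thus lay close to the first, and the gap was between replicates A and B. On MR B, 99.0% of all probes had a lower ratio than contig5068, while over both arrays of MR A 14.2% did. The means were 0.21 ± 1.31, 0.18 ± 1.37 and 0.18 ± 1.18 (SD, n = 2), with unadjusted P of 0.716, 0.762 and 0.748 and adjusted p of 1.00 by limma. No galactokinase 1 contig passed the threshold upwards, against 0.0137% of all probes (2 of 14628). The 95% intervals were -1.10 to 1.52 for contig5068, -1.16 to 1.51 for contig306 and -1.08 to 1.44 for contig6657. With the sign of MR A turned, the means were 0.93, 0.97 and 0.83, each still under the threshold of 1. The unadjusted P by limma was then 0.0038, 0.0026 and 0.0054 and the adjusted p 0.055, 0.052 and 0.057. The turn was chosen after MR A and MR B were seen to run in opposite directions, so it makes their values alike. These P values are therefore descriptions and no test. That turn also brought the probes passing the threshold in MR to 416 upwards and 510 downwards, from 2 and 91.

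The dyes can be set beside these values. Before the ratios were turned to insecticide over water, the log2 ratio of Cy5 over Cy3 of contig5068 was -0.67, -0.76 and -1.14 on the MR arrays, negative under both dye orientations. It was 1.55 and -0.09 in SR, and 3.30, -0.64 and 1.36 in S, where the sign followed the insecticide sample. With a dye effect for each probe in the fit, the mean of contig5068 in S was 1.67. The means in SR and MR cannot move under such a term, since each of these genotypes has 1 replicate per orientation. A dye effect of these probes and a difference between replicates cannot be told apart within SR or MR.

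The difference in response between SR and MR was smaller than its error for each contig. SR minus MR, the log2 ratio of contig5068 differed by 0.61 (95% interval -1.77 to 2.99), that of contig306 by 0.65 (-1.74 to 3.05) and that of contig6657 by 0.54 (-1.59 to 2.66). The adjusted p was 1.00 for each in 1 limma fit of the 7 replicates. The S replicates, whose values chose the contigs, share in the error of this fit and of the water level fit below. The unadjusted p of contig5068 by limma was 0.562, and 0.481 with SR and MR replicates only. No probe of the 14628 was called in this comparison at an adjusted p under 0.05 (0%), and 240 had an unadjusted p under 0.05. Between replicates of the same letter the direction changed: for contig5068, SR A exceeded MR A by 2.26, and the difference of SR B minus MR B was -1.04. Without SR A or without MR A the difference of contig5068 was -0.12 or -0.32, and with MR A turned it was -0.10. Genotype S lay above SR by 0.95, 0.91 and 0.86 and above MR by 1.56, 1.56 and 1.40 in contig5068, contig306 and contig6657, gaps that the choice of contigs on S favoured and that were not tested.

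**Figure D2:**
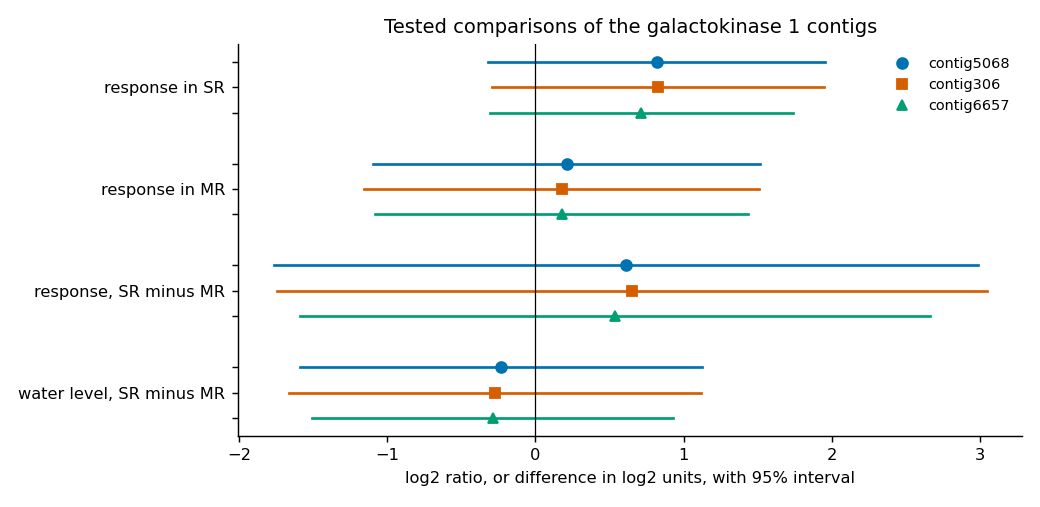
Means and differences on the log2 scale (x axis) with 95% intervals from limma, for the response in SR, the response in MR, the response of SR minus MR and the water level of SR minus MR (y axis), with 1 symbol per contig. All 12 intervals include 0.

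The 2 channels give the level behind each ratio, as log2 normalized intensity. These levels were compared between samples for the same probe only. In water-sprayed aphids contig5068 was at 9.20, 10.84 and 10.63 in S A, S B and S C, at 10.30 and 10.80 in SR A and SR B, and at 11.14 and 10.42 in MR A and MR B. In insecticide-sprayed aphids it was at 12.50, 11.48 and 11.99 in S, at 11.85 and 10.89 in SR, and at 10.42 and 11.56 in MR. The water level was thus lowest in S A, where the ratio was highest, and highest in MR A, where the ratio was lowest. For contig306 the water levels were 9.16, 10.74 and 10.67 in S, 10.29 and 10.78 in SR, and 11.23 and 10.39 in MR. Its insecticide levels were 12.46, 11.51 and 11.82 in S, 11.84 and 10.89 in SR, and 10.44 and 11.54 in MR. For contig6657 the water levels were 10.70, 12.20 and 11.79 in S, 11.39 and 11.96 in SR, and 12.27 and 11.66 in MR. Its insecticide levels were 13.65, 12.84 and 12.91 in S, 12.73 and 12.05 in SR, and 11.61 and 12.67 in MR. For all 3 contigs S A held the lowest water level and the highest insecticide level, which the choice of contigs on S favoured. The water levels of the genotypes overlapped. The insecticide levels of contig6657 in S were all above those in SR and MR, a gap that the choice of contigs on S favoured.

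The mean water level of each contig was lowest in S and highest in MR, with gaps inside the spread. For contig5068 they were 10.22 ± 0.89 in S (SD, n = 3), 10.55 ± 0.35 in SR and 10.78 ± 0.51 in MR (SD, n = 2). Mean insecticide levels ran the other way, at 11.99 ± 0.51, 11.37 ± 0.68 and 10.99 ± 0.80. The choice of contigs on S favoured a low water level and a high insecticide level there, so the place of S was not tested. For contig5068 the neighbours in either order did not differ beyond their spread. In the test of SR minus MR the water level of contig5068 differed by -0.23 (95% interval -1.59 to 1.13; adjusted p = 0.951 by limma). It differed by -0.27 (-1.66 to 1.12; adjusted p = 0.941) for contig306 and -0.29 (-1.51 to 0.93; adjusted p = 0.931) for contig6657. Of all probes, 0.041% (6 of 14628) were called in this comparison. Without MR A the sign of all 3 differences turned, to 0.13, 0.15 and 0.01.

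**Figure D3:**
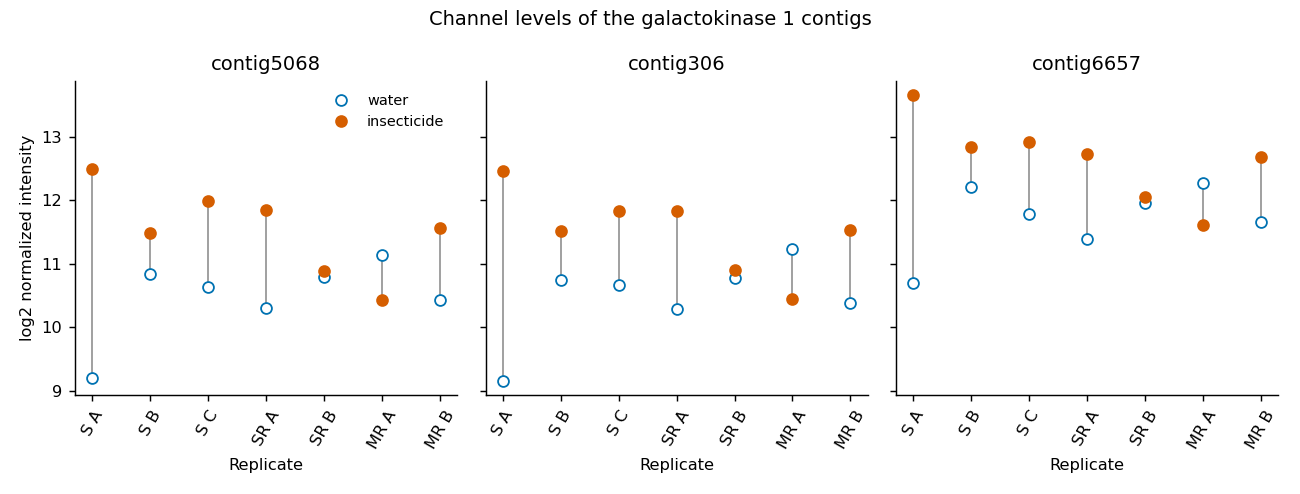
The log2 normalized intensity (y axis) of the water sample (open circles) and the insecticide sample (filled circles) of each of the 7 replicates (x axis), 1 panel per contig, with a line joining both samples of a replicate. The filled circle is above the open one in 6 of 7 replicates and below it in MR A for all 3 contigs.

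The 3 contigs moved together from replicate to replicate. Over the 7 replicates the Pearson correlation of the log2 ratio was 0.997 between contig5068 and contig306 and 0.999 for contig6657 with either, as a description of probes read on the same arrays. Within a replicate the highest and lowest of the 3 ratios differed by 0.02 (SR B) to 0.35 (S A). For the 4139 contigs with 2 probes, the median absolute difference between both probes of 1 contig ran from 0.08 to 0.15 over the replicates. Contig6657 had the lowest ratio of the 3 in 6 of the replicates, and contig306 in MR A. In every replicate the 3 had the same sign.

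The place of the galactokinase 1 contigs among the 183 contigs of the S list was similar in S, SR and MR as labelled. Ranked by mean log2 ratio from the top, contig5068 was at place 25 in S, 25 in SR and 20 in MR, contig306 at 27, 24 and 23, and contig6657 at 36, 36 and 24. With the sign of MR A turned, the places in MR were 79, 76 and 89. In SR the list had a median of 0.26, beside 0.0064 over all contigs, and in MR one of -0.18, beside -0.0022. In SR 7 of the 183 contigs had a probe that passed the threshold upwards and 1 had one downwards, where 0.172% and 1.13% of all contigs did. In MR it was 0 upwards and 14 downwards, where 0.0191% and 0.582% of all contigs did. The list's negative median in MR rests on MR A, its median being -0.996 in MR A and 0.55 in MR B. With the sign of MR A turned, the list's median in MR was 0.79, and 74 of its contigs passed upwards and 2 downwards, beside 3.35% and 3.78% of all contigs. In MR A, 21 of the 183 contigs were above 0, and in MR B 129 were. The sign change of the galactokinase 1 contigs, from below 0 in MR A to above 0 in MR B, was shared by 125 of the 183 (68.3%), themselves included, and by 39.6% of all contigs.

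The enzyme that follows in the Leloir pathway, galactose-1-phosphate uridylyltransferase (contig3714, with 2 probes), had a profile of the same shape and smaller range. Its log2 ratio was 1.87, 0.35 and 0.73 in S A, S B and S C, 0.75 and -0.06 in SR, and -0.36 and 0.49 in MR A and MR B. It was the highest where the galactokinase 1 contigs were the highest and negative in MR A as they were. Its mean was 0.34 ± 0.57 in SR and 0.07 ± 0.60 in MR (SD, n = 2), with unadjusted P of 0.329 and 0.285 for its probes in SR and 0.841 and 0.943 in MR by limma.

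Hexokinase phosphorylates glucose, the sugar made when sucrose is split, at the head of glycolysis. The list holds a pair of contigs for it, contig1069 (described as hex-a) and contig3393 (hexokinase), both with the same best hit, a predicted pea aphid hexokinase A. For contig1069 the log2 ratio was 3.23, 0.70 and 1.62 in S, 0.95 and -0.16 in SR, and -2.00 and 1.66 in MR. For contig3393 it was 1.92, 0.47 and 0.81 in S, 0.59 and -0.13 in SR, and -1.37 and 1.48 in MR. Both were thus further from 0 in the MR replicates than the galactokinase 1 contigs, and again of opposite sign there.

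Sugar transporters carry hexoses across membranes. For contig8316, described as sugar transporter 1, the log2 ratio was 1.88, 0.32 and 1.30 in S, 3.93 and -1.88 in SR, and -2.45 and 0.93 in MR. For contig15295, described as a glucose transporter, it was 1.19, 0.70 and 1.14 in S, -0.81 and 0.79 in SR, and -1.27 and 1.19 in MR. In SR A these contigs went in opposite directions, and the glucose transporter went against the galactokinase 1 contigs. Of these 5 other sugar contigs, which were also selected on their response in S, 0 passed the threshold in either direction in SR or MR by limma. Of all contigs, 0.172% passed it upwards and 1.13% downwards in SR, and 0.0191% and 0.582% in MR. The lowest unadjusted P of their 8 probes was 0.248 in SR and 0.356 in MR. Their median was 0.34 in SR and -0.04 in MR, beside 0.0064 and -0.0022 over all contigs. With the sign of MR A turned, their median in MR was 1.43, contig3714 being at a mean of 0.42. A probe that passed upwards was then held by 4 of the 5, beside 3.35% of all contigs.

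**Figure D4:**
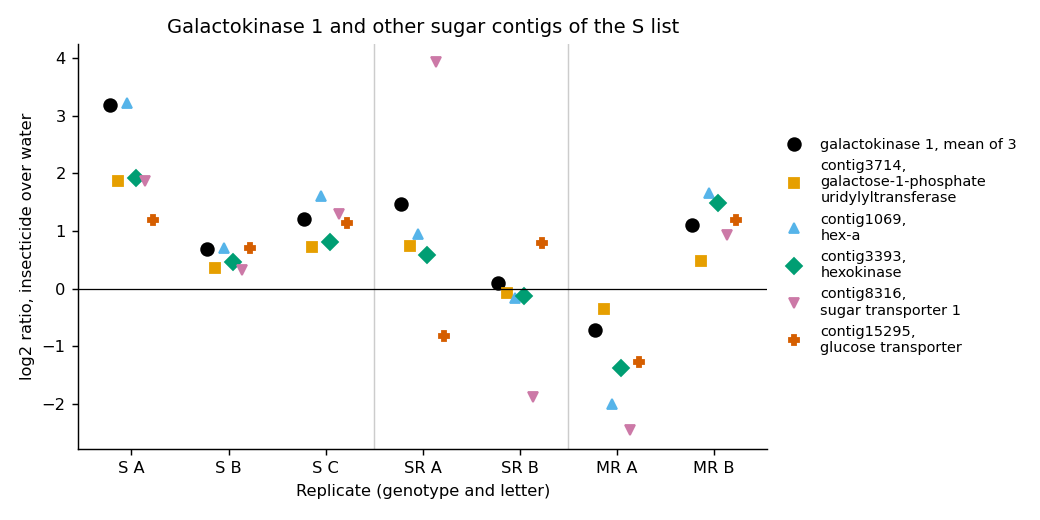
The log2 ratio of insecticide over water (y axis) in each of the 7 replicates (x axis) for the mean of the 3 galactokinase 1 contigs and for the 5 other sugar contigs of the S list. All 6 profiles are above 0 in the S replicates and MR B and below 0 in MR A, and they part in SR, where sugar transporter 1 is at 3.93 and -1.88.

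The contigs whose profile was most like the mean of the 3 galactokinase 1 contigs were found by the Pearson correlation over the 7 replicates, among 8339 other contigs whose probes were well above background in both dyes on all arrays. Contig3714, the uridylyltransferase, came first at r = 0.993. Contig2414 (0.991) and contig7107 (0.985), which the study's lists do not describe, came next, followed by contig6469 (0.984), described as a branched-chain amino acid aminotransferase, and contig3613 (0.984), described as monoacylglycerol o-acyltransferase 2. The first of these enzymes moves amino groups to and from leucine, isoleucine and valine, and the other adds a fatty acid to monoacylglycerol. The described contigs next in order were contig5283 (0.969), sec-23 interacting protein p125, and contig15040 (0.965), an unknown protein. The median r was -0.05 over all candidates and 0.745 over those of the S list, which was selected on the same S replicates. The described contigs named here and the other sugar contigs belong to that list. Since S A is far from the other replicates, r was also taken over the 6 others, where contig6469 ranked first (0.996), contig2414 second (0.991) and contig3714 at place 7 (0.985). Contig7107 fell to place 27 (0.963) and contig3613 to place 29 (0.961). Over the 4 replicates of SR and MR alone, contig3613 was at place 15, contig6469 at 18, contig2414 at 62, contig3714 at 65 and contig7107 at 328. With the sign of MR A turned, over all 7 replicates, contig3714 (0.995) and contig2414 (0.988) were again at places 1 and 2, contig3613 at 6, contig6469 at 16 and contig7107 at 131. These correlations are descriptions, since all points of a replicate share its arrays. Of the other sugar contigs, r was 0.947 for contig1069, 0.900 for contig3393, 0.757 for contig8316 and 0.508 for contig15295. Contig1069 was not among the 8339 candidates, since a probe of it was well above background on only 7 arrays.

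For contig6469 the log2 ratio was 3.18, 0.78 and 1.33 in S, 1.78 and -0.37 in SR, and -1.36 and 1.21 in MR, a wider range than that of the galactokinase 1 contigs. For contig3613 it was 1.96, 0.29 and 0.72 in S, 0.97 and 0.24 in SR, and -0.11 and 0.76 in MR. The second had, like the galactokinase 1 contigs, the same sign in both SR replicates.

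Lists of muscle contigs (5) and gut enzyme contigs (11), both also drawn from the S list, were set beside the galactokinase 1 contigs, since whole aphids hold all tissues. The gut enzymes are cathepsin B, membrane alanyl aminopeptidase N and alpha-glucosidase. The median log2 ratio of the gut list was 1.43, 1.37 and 0.51 in S A, S B and S C, 0.90 and 0.54 in SR, and -2.86 and -2.09 in MR A and MR B. In MR B 2 of its 11 contigs were above 0, whereas the galactokinase 1 contigs were between 1.01 and 1.15 there. In SR 3 of the 11 gut contigs had a probe that passed the threshold upwards, where 0.172% of all contigs did, and in MR 7 had one downwards, where 0.582% did. With the sign of MR A turned, 2 of the 11 passed upwards in MR and 0 downwards, beside 3.35% and 3.78% of all contigs. The log2 of the summed linear levels of the gut list in water ran from 13.41 to 15.95 in S, 14.23 to 17.22 in SR and 17.30 to 17.35 in MR. With insecticide it ran from 14.86 to 17.12, 14.98 to 17.81 and 14.34 to 15.57.

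The median of the muscle list was 0.69, 1.44 and 1.21 in S, -0.68 and 0.71 in SR, and -1.21 and 0.65 in MR. In SR A 1 of its 5 contigs was above 0, where the galactokinase 1 contigs had their highest ratios outside S. In MR 0 of the 5 muscle contigs passed the threshold as labelled, where 0.0191% of all contigs passed upwards and 0.582% downwards. With the sign of MR A turned, 3 of the 5 passed it upwards, where 3.35% of all contigs did. The log2 of the summed linear levels of the muscle list in water ran from 13.54 to 13.82 in S, 15.02 to 15.09 in SR and 14.08 to 14.94 in MR. With insecticide it ran from 14.27 to 15.49, 14.29 to 15.39 and 13.51 to 14.88. Probes well above background in both dyes on all arrays were held by 3 of the 5 muscle and 4 of the 11 gut contigs. The part of either tissue in the galactokinase 1 values was not tested.

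**Figure D5:**
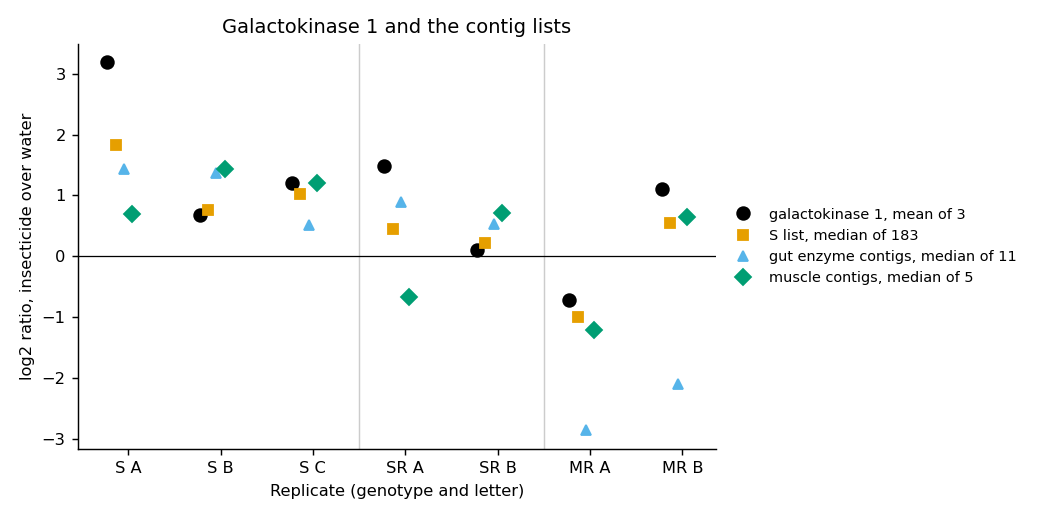
The log2 ratio of insecticide over water (y axis) in each of the 7 replicates (x axis) for the mean of the 3 galactokinase 1 contigs and the medians of the S list (183 contigs), the gut enzyme list (11) and the muscle list (5). In MR B galactokinase 1 is at 1.10 and the gut list at -2.09, and in SR A galactokinase 1 is at 1.48 and the muscle list at -0.68.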

How the data were processed

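The deposited files were scanner output of 2-colour Agilent arrays (Feature Extraction 10.1.1.1), whose red and green median spot and median local background intensities the authors had not normalized. The authors' own fold-change tables were not used. Intensities were background-corrected (normexp, offset 50) and loess-normalized within arrays in limma 3.58.1 (R 4.3.3), control spots and outlier spots were left out, ratios were turned to insecticide over water, and arrays of MR replicate A were averaged. Channel levels were scaled between arrays (Aquantile). The response was fitted per genotype over 14628 probes (lmFit, eBayes), with the methods' threshold of a log2 ratio beyond 1 and an unadjusted P under 0.05; SR was compared with MR in 1 fit of 7 replicates with Benjamini-Hochberg adjustment. The code was tested on simulated data. Named contigs were the 3 galactokinase 1 contigs, the S list's galactose, hexose and sugar transport contigs, and the 5 contigs overall and the 5 described contigs most correlated with the mean of the 3. Members and lists were chosen with earlier results of these data known. Nothing states that replicates were separate cultures, so p-values measure the spread between these samples. For each probe, eBayes moderates this spread with that of all probes. With few replicates in SR and MR, their P values and 95% intervals rest in large part on the other probes. Few arrays limit the precision. Other background corrections, normalizations, filters, models and left-out replicates were tried.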

Additional observations from a re-analysis of the deposited data

How the results depend on the processing

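No galactokinase 1 contig crossed its threshold in SR, in MR or between them under any alternative run. The SR mean was above 0 under all alternatives but hung on SR A, at 0.09 for contig5068 without it and 1.55 without SR B. Leaving out 1 replicate at a time, a lone replicate being given the spread of the other genotypes, the MR mean ranged from -0.71 to 1.14 for contig5068, from -0.79 to 1.15 for contig306 and from -0.65 to 1.01 for contig6657. The SR minus MR difference in response ranged from -0.32 to 1.54, from -0.32 to 1.62 and from -0.30 to 1.37 in the same order, and in water level from -0.59 to 0.13, from -0.70 to 0.15 and from -0.59 to 0.014. With the 3 MR arrays as separate replicates the MR means were -0.10, -0.15 and -0.10. With the sign of MR A turned, the SR minus MR differences were -0.10, -0.14 and -0.12. That turn also gave the lowest adjusted p in MR, which is a description only. The adjusted p over all alternatives was 0.91 to 1.00 in SR, 0.052 to 1.00 in MR, 0.507 to 1.00 for the difference in response and 0.616 to 1.00 for that in water level. The means of the other named contigs moved by less than the spread between their replicates in all 110 values with another background correction or normalization or with outlier spots kept.

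With the replicate letter as a replicate block, contig5068 had a mean of 1.97 in S, of 0.82 in SR and of 0.21 in MR. The SR minus MR differences were 0.61, 0.65 and 0.54 in response and -0.23, -0.27 and -0.29 in water level. The means in SR and MR and their differences cannot move under this block, since both genotypes have replicates A and B only. The mean in S is then that of S A and S B alone. Only the error of the fit could change, and no call on these contigs in SR, in MR or between them did. The block took the probes called in water level from 6 to 0 and left 0 in response. Whether the letters pair samples across genotypes was not settled. Deviations from the genotype mean correlated at 0.50 between S A and SR A, -0.37 between S A and MR A and -0.02 between SR A and MR A. They correlated at 0.43 between S B and SR B and 0.03 between S B and MR B. With 2 replicates the A and B deviations of SR or MR mirror each other, so these values are not separate. Letters A and B were also the dye orientations, so a pairing by letter and a dye effect cannot be told apart. The values with MR also rest on the direction of MR A. All spots of the 3 contigs were well above background. SR and MR had 2 replicates each, and the direction of MR A moved the MR mean of contig5068 from 0.21 to 0.93.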
